A study of Mus musculus with 12 samples.

Results

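A list of enzyme and carrier genes of mitochondrial fatty acid oxidation, set by name, was followed through the stromal vascular cells of mouse white fat. All 10 were found among the 31053 genes of the deposited matrices. They are Cpt2, Slc25a20, Acadl, Acadm, Acadvl, Hadha, Hadhb, Acaa2, Etfdh and Eci1. The study dissociated epididymal (eWAT) and inguinal (iWAT) white adipose tissue with collagenase, discarded the floating fat cells and sequenced the remaining stromal vascular fraction by droplet single-cell RNA-seq with 3' tags. There were 12 libraries, 2 per group and depot, from male mice aged 12 weeks. WT-Veh mice were C57BL/6J given vehicle (methylcellulose), ob/ob-Veh mice were Lepob/Lepob given the same vehicle, and ob/ob-Rosi mice were Lepob/Lepob given rosiglitazone, an agonist of the nuclear receptor PPARγ, by gavage at 30 mg/kg every morning and evening for 3 days. The gavage was thus common to all 3 groups, and no library analysed here came from a WT mouse given the drug. Lepob is a germ-line mutation, so those mice lacked functional leptin from birth. The 2 libraries of a group are biological replicates, and the floating adipocytes were removed, although adipocyte transcripts remained in the class sums below.

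Fatty acids are burned in the mitochondrial matrix. Long chains cross the inner membrane as carnitine esters through the carrier encoded by Slc25a20 and are returned to coenzyme A by carnitine palmitoyltransferase 2 (Cpt2). Each round of β-oxidation then begins with an acyl-CoA dehydrogenase for very long (Acadvl), long (Acadl) or medium (Acadm) chains, whose electrons pass through the electron-transfer flavoprotein to the ubiquinone oxidoreductase Etfdh. The mitochondrial trifunctional protein (α subunit Hadha, β subunit Hadhb) carries out the later steps for long chains, the thiolase Acaa2 cleaves shorter ones, and Eci1 moves double bonds of unsaturated chains into the position that the pathway can use. In fat, PPAR nuclear receptors are known regulators of several of these genes, and capillary endothelium and macrophages are known users of fatty acids.

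The stretches of genome before 4 start regions are shown because they carry the arrangement that the members share or do not share. Build GRCm38.p6 and the RefSeq promoter windows were used, the windows running from 250 bases before to 50 bases after a start. Bases are in the direction of the gene named. Capitals mark the nuclear receptor core motif AGGTCA, the ETS motif CCGGAAG or the GC box GGGCGG on either strand. Hadha (chr5:30118304-30155162, minus strand) and Hadhb (chr5:30155248-30184593, plus strand) are divergent neighbours, and the whole interval of 85 bases between their annotated starts (chr5:30155163-30155247) is the last line.
Acadm upstream, chr3:153944644-153944893, minus strand: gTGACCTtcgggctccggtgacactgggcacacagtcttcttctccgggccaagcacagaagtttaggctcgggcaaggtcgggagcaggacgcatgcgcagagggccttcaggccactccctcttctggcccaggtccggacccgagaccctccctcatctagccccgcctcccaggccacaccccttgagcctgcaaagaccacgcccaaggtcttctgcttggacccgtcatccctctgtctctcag
Acadvl upstream, chr11:70015429-70015678, minus strand: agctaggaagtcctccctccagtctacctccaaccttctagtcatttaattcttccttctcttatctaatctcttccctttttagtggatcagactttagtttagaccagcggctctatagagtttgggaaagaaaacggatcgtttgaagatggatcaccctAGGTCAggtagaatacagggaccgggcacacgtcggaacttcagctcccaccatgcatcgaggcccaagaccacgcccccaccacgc
Slc25a20 upstream, chr9:108661886-108662087, plus strand: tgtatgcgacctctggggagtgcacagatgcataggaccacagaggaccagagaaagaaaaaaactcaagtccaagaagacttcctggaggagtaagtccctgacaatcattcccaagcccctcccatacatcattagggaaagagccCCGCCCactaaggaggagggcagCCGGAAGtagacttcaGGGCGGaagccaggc
Hadhb to Hadha interval, chr5:30155163-30155247, plus strand: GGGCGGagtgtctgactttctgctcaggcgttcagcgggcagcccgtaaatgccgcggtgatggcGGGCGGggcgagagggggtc

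Promoter windows of 9 members were searched on both strands, and that of Acaa2 was not searched. AGGTCA was in 2 of them (Acadm and Acadvl) and in 16.3% of all 32851 promoter windows. The direct repeat AGGTCANAGGTCA, the form that PPARs bind with RXR, was in 0 of the 9 and in 0.0396% of all, and TNAAGGTCA, which contains the core motif, was in 0 and in 1.28%. CCGGAAG was in 2 (Cpt2 and Slc25a20) against 8.86% of all, GGGCGG in 7 against 35.7%, and CCAAT in 1 (Etfdh) against 37.4%. The Etfdh window (chr3:79628718-79629017, minus strand) lay inside its annotated gene span (chr3:79603788-79629500). Its matches are therefore not upstream of the start of that span. The windows of the members held 50.7% to 70.3% G and C (median of all 52.7%) and 9 to 34 CpG dinucleotides (median of all 7). The Hadha and Hadhb windows overlap by 228 bases and are not independent. These are matches of letters in short windows and no measure of binding.

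The matrices held 20132553 to 92475986 UMIs per library, and 6472 to 17500 cells per library passed the filters. Cells were clustered within each depot and named "X-like" from marker genes, and the 17 combinations of class and depot with at least 20 cells in each of 6 libraries were tested: endothelial (EC-like), dendritic (DC-like), T and natural killer (NKT-like), perivascular macrophage (PVM-like), non-perivascular macrophage (NPVM-like), preadipocyte-like and progenitor-like cells in both depots, and B cell (BC-like), lipid-associated macrophage (LAM-like) and mesothelial-like cells in eWAT only. Libraries shared 0.108% to 1.05% of the barcodes of the smaller library. The iWAT library labelled WT-Veh 1 stood apart, with 9793 of its 17063 cells unnamed and a median of 1132 UMIs per cell. Among named cells, leptin transcripts per 100 Adipoq UMIs were 77.5 and 58.9 in eWAT libraries labelled WT-Veh, 4.13 and 25.4 in ob/ob-Veh and 278 and 366 in ob/ob-Rosi. In iWAT they were 27.5 and 31.7, 36.4 and 15.1, and 163 and 141. These ratios rest on few UMIs. Libraries labelled ob/ob-Veh held 5 and 32 Lep UMIs in eWAT and 4 and 8 in iWAT. Those labelled ob/ob-Rosi held 18 and 41 Adipoq UMIs in eWAT. Both transcripts come from adipocytes, which were removed, and the Lepob allele is transcribed, so this is no direct check of genotype, but the eWAT libraries labelled ob/ob-Veh were the lowest. LAM-like cells numbered 6453 of eWAT cells labelled WT-Veh, 131 of those labelled ob/ob-Veh and 6270 of those labelled ob/ob-Rosi. Cells that floated with the adipocytes were not sequenced, so these counts are no check of the labels. Every group name below therefore stands for the label of the library, and each direction drawn from it depends on that label.

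Expression was given as CPM, the UMIs of a gene per 1000000 UMIs of its class in a library, a 3' tag measure that was compared between classes and groups but not between genes. Levels between classes are described without a test, since the clusters were formed from the same cells. Classes are ranked for each gene by the mean over their 6 libraries, and such a rank need not hold within each group. Summed over the 10 genes, EC-like cells had the highest mean over the 6 libraries in both depots, though not in every group. Mesothelial-like (714 CPM) and LAM-like cells (621 CPM) were above EC-like cells (598 CPM) in eWAT ob/ob-Rosi, and DC-like cells (1005 CPM) above EC-like cells (687 CPM) in iWAT ob/ob-Veh. Most of that DC-like sum was Slc25a20 alone, at 746 and 716 CPM in the 2 libraries. In eWAT EC-like cells the sum was 1032 and 1130 CPM for WT-Veh, 818 and 727 in ob/ob-Veh and 550 and 646 in ob/ob-Rosi (817 ± 225, SD, n = 6). In iWAT EC-like cells it was 1152 and 1243, 658 and 716, and 549 and 593 (819 ± 300, SD, n = 6). In both depots the 3 groups of EC-like cells did not overlap, and WT-Veh was highest and ob/ob-Rosi lowest. The lowest classes were BC-like cells in eWAT (448 ± 115 CPM) and NPVM-like cells in iWAT (386 ± 46.8 CPM), SD over 6 libraries each. In bulk sums of all named cells of a library, the 10 genes together took 513 to 759 CPM in eWAT and 397 to 647 CPM in iWAT. Unnamed cells were left out, 9793 of them in iWAT WT-Veh 1. In such sums fewer cells of a class and less RNA per cell cannot be told apart.

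**Figure D1:**
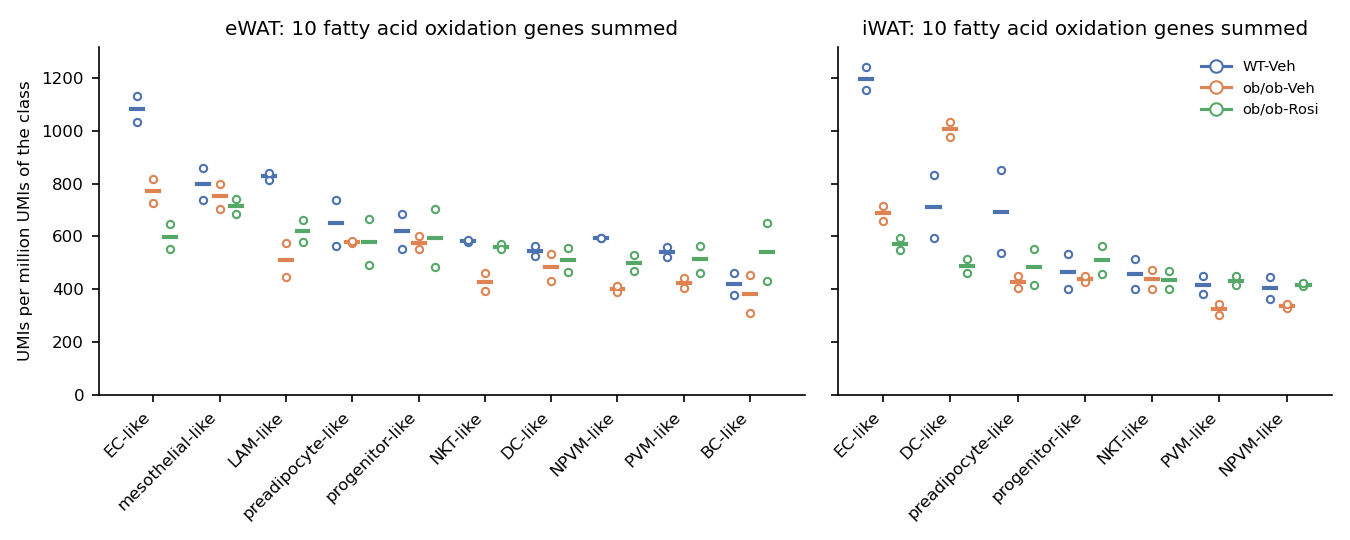
Summed level of the 10 genes by class and group. The vertical axis is the CPM of the 10 genes within the class, each open circle is a library, each bar the mean of 2 libraries, and classes run from the highest to the lowest mean within eWAT (left) and iWAT (right). EC-like libraries labelled WT-Veh reach 1243, and the iWAT DC-like libraries labelled ob/ob-Veh reach 1033, most of it from Slc25a20.

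The import genes had unlike patterns. Slc25a20 (chr9:108662088-108684641), the carnitine-acylcarnitine carrier, was highest in DC-like cells of both depots. In eWAT DC-like cells it measured 98.1 and 127 CPM in WT-Veh, 112 and 227 CPM in ob/ob-Veh and 126 and 148 in ob/ob-Rosi, and all 6 lay above every library of the next class (NKT-like cells, mean 34.7 CPM). In iWAT DC-like cells it measured 509 and 248 CPM, 746 and 716, and 137 and 126, with EC-like cells next at a mean of 39.5 CPM. The dendritic class held different cells in the depots. In eWAT it was split between a cluster led by Clec9a and Xcr1, genes of cross-presenting type 1 dendritic cells, and a cluster with Cd209a and Ccr7, while in iWAT it was the Clec9a and Xcr1 cluster alone, with 42 to 198 cells per library. Within eWAT, Slc25a20 was at 159 to 549 CPM in the Clec9a and Xcr1 cluster and at 28.7 to 58.6 CPM in the other, so the high carrier level belonged to the first. Cpt2 (chr4:107903981-107923610), the second import step, was in contrast lowest among the iWAT classes in those DC-like cells, with a mean of 2.80 CPM, and highest in EC-like cells at 18.5 CPM in eWAT and 19.3 CPM in iWAT. Cpt2 was sparse, with at least 20 UMIs in every library in 2 of 10 eWAT classes and 1 of 7 iWAT classes, and the class next to EC-like cells overlapped with it in both depots.

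**Figure D2:**
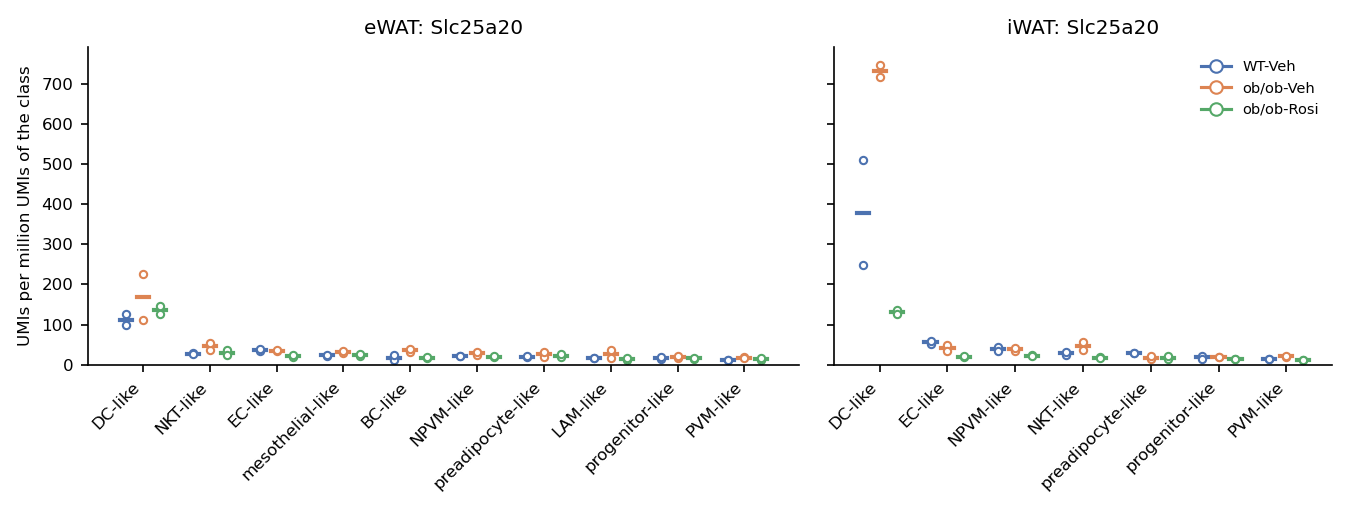
Slc25a20 by class and group. The vertical axis is the CPM of Slc25a20 within the class, each open circle is a library and each bar the mean of 2. DC-like libraries stand above all other classes in both depots, at 98.1 to 227 in eWAT and 126 to 746 in iWAT.

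The chain-length dehydrogenases differed in how far they varied between classes. Acadl (chr1:66830839-66863277) was highest in EC-like cells in both depots, with means of 121 CPM in eWAT and 115 CPM in iWAT, 1.77 and 2.28 times its lowest class. In eWAT EC-like cells Acadl measured 141 and 170 CPM, 110 and 90.5, and 82.3 and 130. Acadm (chr3:153922357-153944632) led in eWAT LAM-like cells at 73.7 CPM and in iWAT preadipocyte-like cells at 69.7 CPM, by means over all groups. Within eWAT ob/ob-Veh, preadipocyte-like cells had a higher mean than LAM-like cells. Acadm spanned no more than 1.88 times from highest to lowest class. Acadvl (chr11:70010183-70015411) led in eWAT mesothelial-like cells at 61.4 CPM and in iWAT EC-like cells at 56.1 CPM, 3.02 and 2.42 times its lowest class (BC-like and NPVM-like cells). Etfdh (chr3:79603788-79629500), the oxidoreductase that takes their electrons, was highest in EC-like cells of both depots at 25.4 and 26.6 CPM. For each of these 4 genes the libraries of the first and second class overlapped in both depots.

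The trifunctional protein set EC-like cells apart by its β subunit. Hadhb in eWAT EC-like cells measured 281 and 261 CPM in WT-Veh, 255 and 209 in ob/ob-Veh and 106 and 123 in ob/ob-Rosi, and in iWAT 434 and 376, 229 and 237, and 119 and 83.2. Its mean there was 3.5 times that of its lowest class in eWAT and 4.16 times in iWAT (DC-like cells in both), although libraries labelled ob/ob-Rosi brought it down to the range of the next class. Hadha was highest in eWAT LAM-like (142 CPM) and EC-like cells (139 CPM), which overlapped, and in iWAT EC-like cells (128 CPM), which overlapped with NKT-like cells (70.5 CPM). The iWAT EC-like mean was carried by WT-Veh, at 210 CPM against 81.4 in ob/ob-Veh and 92.8 in ob/ob-Rosi.

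**Figure D3:**
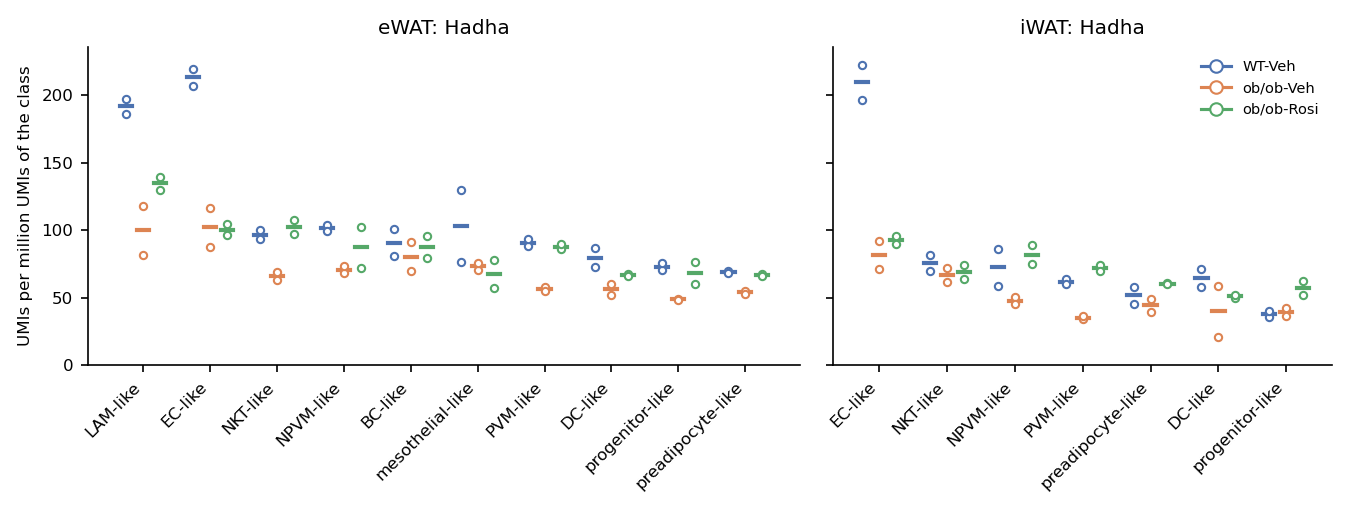
Hadha by class and group. The vertical axis is the CPM of Hadha within the class, each open circle is a library and each bar the mean of 2. In EC-like cells the libraries labelled WT-Veh lie at 197 to 223, above the other groups, which stay at or below 117.

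The thiolase Acaa2 was highest in stromal classes, and the isomerase Eci1 in mesothelial-like or EC-like cells. Acaa2 (chr18:74779197-74806208) was highest in eWAT mesothelial-like (211 ± 19.3 CPM, SD, n = 6) and progenitor-like cells (208 ± 58.7 CPM) and in iWAT progenitor-like (137 CPM) and preadipocyte-like cells (132 CPM), and lowest in DC-like cells, at 53.7 CPM in eWAT and 31.2 CPM in iWAT. Eci1 (chr17:24426641-24439348) was highest in eWAT mesothelial-like cells, where it measured 79.5 and 62.7 CPM, 69.9 and 87.8, and 59.0 and 114, without overlap with EC-like cells, the next class (mean 41.7 CPM). In iWAT it was highest in EC-like (31.5 CPM) and preadipocyte-like cells (31.0 CPM), which overlapped. Both genes differed between the libraries of a group by more than between groups in some classes. In iWAT progenitor-like cells Acaa2 measured 84.5 and 192 CPM in WT-Veh, 106 and 118 in ob/ob-Veh, and 102 and 222 in ob/ob-Rosi. Eci1 in the same cells measured 8.60 and 38.4, 12.1 and 16.0, and 20.2 and 29.3 CPM. In all 3 groups replicate 2 was the higher library for both genes.

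Across the 17 class means the 45 pairs of members had a median Pearson correlation of 0.42 on the log2(CPM + 1) scale. The highest was Acadvl with Cpt2 (0.84) and the lowest Acaa2 with Slc25a20 (−0.71), and 37 pairs were positive. Among 11451 other genes, those whose class means followed the mean of the 10 most closely were Pnkd (r = 0.948), Ppcs (0.935), Eci2 (0.931), Ccdc59 (0.927) and Nbdy (0.925). Eci2 is a second enoyl-CoA isomerase. The points share libraries and depth, so these coefficients only describe likeness.

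**Figure D4:**
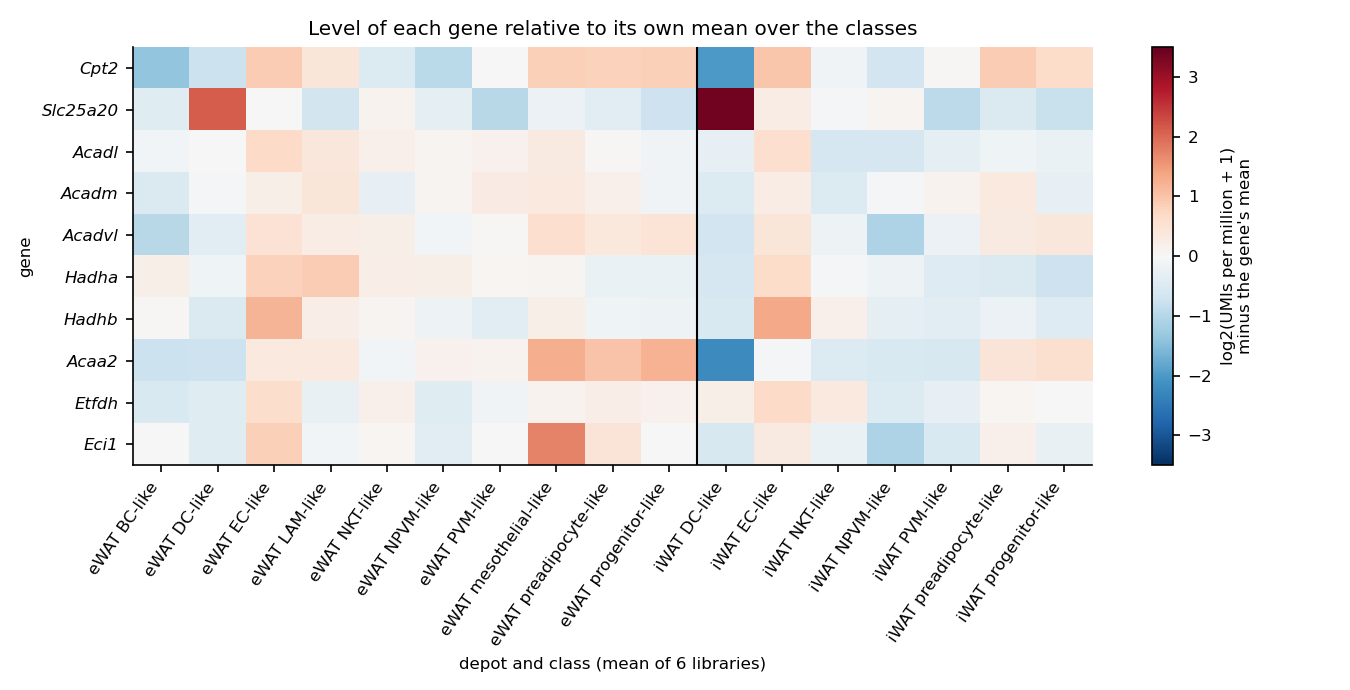
Each gene's level by class relative to its own mean. Rows are the 10 genes, columns the 17 classes (eWAT left of the line, iWAT right), and colour is the mean of log2(CPM + 1) over 6 libraries minus the gene's mean over all columns. Slc25a20 is darkest red in DC-like cells, where Cpt2 and Acaa2 are blue in iWAT, and Acaa2 and Eci1 are red in mesothelial-like cells.

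The ob/ob effect, ob/ob-Veh against WT-Veh, asks how genetic obesity is associated with these genes within a class. A gene was called where edgeR's quasi-likelihood test on UMI sums per library gave a p of at most 0.05 after Benjamini-Hochberg adjustment over all genes of the class, together with a change of at least 1.1-fold. In eWAT, 94 of the 100 gene and class combinations passed the filter on low counts, 1 was called, and 3.91% of all gene and class tests were called. The count was 10 without ob/ob-Rosi 1 and 8 without ob/ob-Rosi 2, when 7.21% and 6.99% of all tests were called, 0 without any 1 of the WT-Veh and ob/ob-Veh libraries (1.39% to 2.21% of all tests), and 5 by DESeq2 (4.38%). Differences leaned down, with 71 of 94 below 0, a median log2 fold change of −0.42 (medians of all genes in the 10 classes, −0.09 to 0.05) and 28 at an unadjusted p under 0.05, as were 20% of all gene and class tests. The genes did not move alike. Acadl and Hadha were lower in all 10 classes and Acaa2 too, though Acaa2 in 9 of 10 when scaled by library size alone. Their median log2 fold changes were −0.88, −0.67 and −0.78. Acadvl was lower in 9 of 9 classes and Eci1 in 8 of 9. Slc25a20 went the other way, higher in 8 of 9 classes with a median of 0.32, and Acadm (median −0.02) and Cpt2 (−0.08) were split. None of these directions over classes is a test, since the classes of a library share its mouse.

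The called gene was Hadha in eWAT EC-like cells. Libraries labelled WT-Veh had 207 and 219.6 CPM, with 117 and 87.3 in ob/ob-Veh and 105 and 96.1 in ob/ob-Rosi. WT-Veh lay above both other groups, and Hadha fell by 1.16 ± 0.26 (SE) on the log2 scale in ob/ob-Veh (edgeR quasi-likelihood test, adjusted p = 0.0224). The call was lost without any of the 4 libraries compared, at adjusted p 0.0877 without WT-Veh 1, 0.0741 without WT-Veh 2, 0.0593 without ob/ob-Veh 1 and 0.247 without ob/ob-Veh 2, and also without doublets (0.0689) and with each cell thinned to 700 UMIs (0.188). Summed CPM of 10 white adipocyte genes in these EC-like cells was 588 and 639 in WT-Veh, 2700 and 2274 in ob/ob-Veh and 377 and 361 in ob/ob-Rosi, and that of 8 LAM markers 6693 and 5932, 971 and 892, and 4187 and 4238. Their part in the result was not tested, and all EC-like cells of the 3 groups came from the same cluster.

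In iWAT, 69 of 70 combinations were tested for the ob/ob effect and 3 were called, against 2.96% of all gene and class tests. By DESeq2 7 were called (5.9% of all tests), and without the filter on low counts 14 (6.46%). Without WT-Veh 1, the library that stood apart, 18 were called, against 13.4% of all tests, and without ob/ob-Veh 1 or ob/ob-Veh 2 the count was 0 (0.104% and 0.188%). The median mitochondrial share of UMIs over all kept cells moved with these groups, at 5.89% and 3.32% in WT-Veh, 9.05% and 8.06% in ob/ob-Veh and 4.48% and 2.17% in ob/ob-Rosi, and its part in the results was not tested. Of the differences, 55 of 69 were below 0, with a median of −0.46 (all genes, −0.18 to 0.06 by class) and 20 at an unadjusted p under 0.05 (20.3% of all tests). Acadl and Acaa2 were lower in 7 of 7 classes (medians −0.92 and −1.17). Hadha and Eci1 were lower in 7 of 7 (medians −0.88 and −1.16), but in 6 of 7 when scaled by library size alone. Slc25a20 was split here, higher in 3 classes and lower in 4 (median −0.03). Hadha fell again in EC-like cells, where it measured 223 and 197 CPM in WT-Veh, 71.0 and 91.8 in ob/ob-Veh and 95.9 and 89.7 in ob/ob-Rosi. Both libraries labelled WT-Veh were above the other 4, and Hadha fell by 1.5 ± 0.28 (SE) on the log2 scale (edgeR, adjusted p = 0.0228). The adjusted p was 0.225 without ob/ob-Veh 1 and 0.172 without ob/ob-Veh 2. In these cells 7 of the 10 members had an unadjusted p under 0.05 (20.5% of all genes of the class) and 9 of 10 were lower, with a median of −0.97 (all genes, −0.02). Most EC-like cells of WT-Veh (77.5%) were in another cluster than most of those of ob/ob-Veh (63.6%) and ob/ob-Rosi (88.0%). Summed CPM of 8 adipocyte progenitor (APC) markers in EC-like cells was 2088 and 2088, 6298 and 5401, and 1947 and 3395, and its part in the result was not tested.

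Hadha also fell in iWAT PVM-like cells. It measured 64.0 and 59.7 CPM in WT-Veh, 33.9 and 36.2 in ob/ob-Veh and 73.8 and 70.0 in ob/ob-Rosi. The libraries labelled ob/ob-Veh were below the other 4, and Hadha fell by 0.98 ± 0.22 (SE) on the log2 scale (edgeR, adjusted p = 0.0452). The call remained without WT-Veh 1 (0.0283) and was lost without WT-Veh 2 (0.0926), ob/ob-Rosi 1 (0.0803), ob/ob-Rosi 2 (0.0855), ob/ob-Veh 1 (0.308) or ob/ob-Veh 2 (0.197), or when scaled by library size alone (0.0728). Of PVM-like cells labelled ob/ob-Veh 98.1% were in another cluster than the one leading in WT-Veh (57.4%) and ob/ob-Rosi (39.4%), and the APC markers in PVM-like cells summed to 924 and 914 CPM in WT-Veh, 6129 and 5783 in ob/ob-Veh and 2027 and 2162 in ob/ob-Rosi. Their part in the result was not tested.

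Eci1, the isomerase, fell in iWAT preadipocyte-like cells. It measured 27.3 and 77.1 CPM in WT-Veh, 12.6 and 13.8 in ob/ob-Veh and 23.8 and 31.4 in ob/ob-Rosi. Both libraries labelled ob/ob-Veh were below the other 4, and those labelled WT-Veh differed from each other more than any other pair. Eci1 fell by 2.04 ± 0.44 (SE) on the log2 scale (edgeR, adjusted p = 0.0481). Without WT-Veh 2 the log2 fold change was −1.06 with an adjusted p of 0.233, and without ob/ob-Veh 1 or ob/ob-Veh 2 the adjusted p was 0.395 or 0.302. It was 0.178 with each cell thinned to 700 UMIs and 0.157 with finer clusters (resolution 2). In these cells 10 white adipocyte genes summed to 489 and 354 CPM in WT-Veh, 117 and 92.3 in ob/ob-Veh and 32.7 and 50.9 in ob/ob-Rosi, and 6 brown adipocyte genes to 47.5 and 46.9, 10.5 and 12.4, and 19.8 and 19.9. Most of the cells labelled ob/ob-Veh (86.6%) were in another cluster than most of those of WT-Veh (70.3%) and ob/ob-Rosi (65.2%). The part of these transcripts and clusters in the result was not tested.

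The Rosi effect, ob/ob-Rosi against ob/ob-Veh, asks what the drug was associated with in obese mice. It shares the ob/ob-Veh libraries with the ob/ob effect, so opposite signs in the pair of comparisons are not separate evidence. In eWAT 0 of 94 combinations were called by edgeR and 2 by DESeq2, 11 had an unadjusted p under 0.05, and of all gene and class tests 3.76% were called and 19.1% were at that unadjusted p. Without ob/ob-Rosi 1 the count was 5, against 9.85% of all tests. The median log2 fold change was 0.15 (all genes, −0.04 to 0.08 by class). Acadl was higher in all 10 classes (median 0.59) and Slc25a20 lower in 9 of 9 (median −0.32). Hadha and Acaa2 were higher in 9 of 10 classes (medians 0.40 and 0.47), but in 8 and 7 of 10 when scaled by library size alone. The lowest adjusted p belonged to Hadhb in EC-like cells, with a log2 fold change of −0.96 ± 0.26 (SE) and an adjusted p of 0.0516.

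In iWAT 5 of 69 combinations were called for the Rosi effect, 4 higher and 1 lower, against 6.13% of all gene and class tests, and 18 had an unadjusted p under 0.05 (24.9% of all tests). The count was 14 without WT-Veh 1 and 12 without WT-Veh 2, when 16% and 16.7% of all tests were called, and 0 without any 1 of the ob/ob-Veh and ob/ob-Rosi libraries (0.00716% to 3.73% of all tests). The median was 0.34 (all genes, −0.13 to 0.10 by class). Acadl, Hadha and Acaa2 were higher in 7 of 7 classes (medians 0.67, 0.68 and 0.83), Eci1 in 7 of 7 but in 6 of 7 when scaled by library size alone (median 1.00), and Slc25a20 was lower in 7 of 7 (median −0.53). The share called among the members, 7.25%, was near that of all genes.

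Both macrophage classes of iWAT had called members. In NPVM-like cells Hadha measured 85.9 and 58.8 CPM in WT-Veh, 50.3 and 45 in ob/ob-Veh and 88.8 and 75.0 in ob/ob-Rosi. The drug-treated libraries were above both ob/ob-Veh libraries, and Hadha rose with a log2 fold change of 1.15 ± 0.30 (SE; edgeR, adjusted p = 0.0277). The adjusted p was 0.126 without ob/ob-Rosi 1, 0.152 without ob/ob-Rosi 2, 0.167 without ob/ob-Veh 1 and 0.189 without ob/ob-Veh 2, 0.101 when scaled by library size alone, where the log2 fold change was 0.77, and 0.13 with each cell thinned to 700 UMIs. Eci1 in the same cells measured 9.34 and 19.0, 7.08 and 3.37, and 13.5 and 16.0 CPM, from 13 UMIs in ob/ob-Veh and 134 in ob/ob-Rosi. It was called with a fitted log2 fold change of 1.79 ± 0.53 (SE; edgeR, adjusted p = 0.0415), but it passed the filter on low counts only through the groups where it is higher, so the call is no support for a change. By DESeq2, without doublets or scaled by library size alone the adjusted p was 0.0589, 0.0527 or 0.0632, and without ob/ob-Rosi 1 or 2 or ob/ob-Veh 1 or 2 the adjusted p was 0.0681, 0.218, 0.148 or 0.216. In PVM-like cells, whose Hadha levels are given above, Hadha rose with a log2 fold change of 1.21 ± 0.22 (SE; edgeR, adjusted p = 0.0206), and leaving out the same libraries in turn gave 0.0604, 0.142, 0.220 and 0.123. Among all genes the Rosi effect was called in 16.9% of genes in NPVM-like and 11.2% in PVM-like cells. In NPVM-like cells 12 dissociation response genes summed to 6482 and 8931 CPM in WT-Veh, 15928 and 15055 in ob/ob-Veh and 8137 and 7339 in ob/ob-Rosi, and the APC markers to 1231 and 1176, 6728 and 6128, and 2269 and 1971. Median UMIs per NPVM-like cell were 2011 and 5398, 1572 and 1651, and 3995 and 3963. The part of these in the result was not tested.

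In iWAT DC-like cells the carrier and the thiolase were called in opposite directions. Slc25a20, at 746 and 716 CPM in ob/ob-Veh (71 and 61 UMIs) and 137 and 126 CPM in ob/ob-Rosi (121 and 141 UMIs), fell by 1.82 ± 0.49 (SE) on the log2 scale (edgeR, adjusted p = 0.0282). The size depended on the scaling, with a log2 fold change of −2.49 by library size alone (0.00784) and a ratio of summed counts of 0.179 (95% interval 0.145 to 0.223, counting error only), and the adjusted p was 0.0519 without the filter. The groups did not overlap, and the libraries labelled WT-Veh (509 and 248 CPM) lay between them. The call was lost without ob/ob-Rosi 1 (0.143), ob/ob-Rosi 2 (0.205), ob/ob-Veh 1 (0.316) or ob/ob-Veh 2 (0.208). Acaa2 was seen with 1 and 0 UMIs in ob/ob-Veh (10.5 and 0 CPM) against 25 and 64 UMIs in ob/ob-Rosi (28.4 and 57.3 CPM), and with 6 and 65 UMIs in WT-Veh (38.6 and 52.4 CPM). It was called with a fitted log2 fold change of 3.55 ± 1.09 (SE; edgeR, adjusted p = 0.0492), but it passed the filter on low counts only through the groups where it is high, so the call is no support for a change. The ratio of the summed counts was 8.03, with a 95% interval of 1.41 to 321 from counting error only. Without ob/ob-Veh 1 or 2 the fitted log2 fold change was 7.96 or 2.69 and the adjusted p 0.316 or 0.312, and without WT-Veh 2, ob/ob-Rosi 1 or ob/ob-Rosi 2 the gene failed the filter. DC-like cells labelled ob/ob-Veh numbered 86 in both libraries together, and their APC markers summed to 10375 and 6645 CPM, against 869 and 1073 in WT-Veh and 1448 and 2122 in ob/ob-Rosi. The part of these in the result was not tested.

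**Figure D5:**
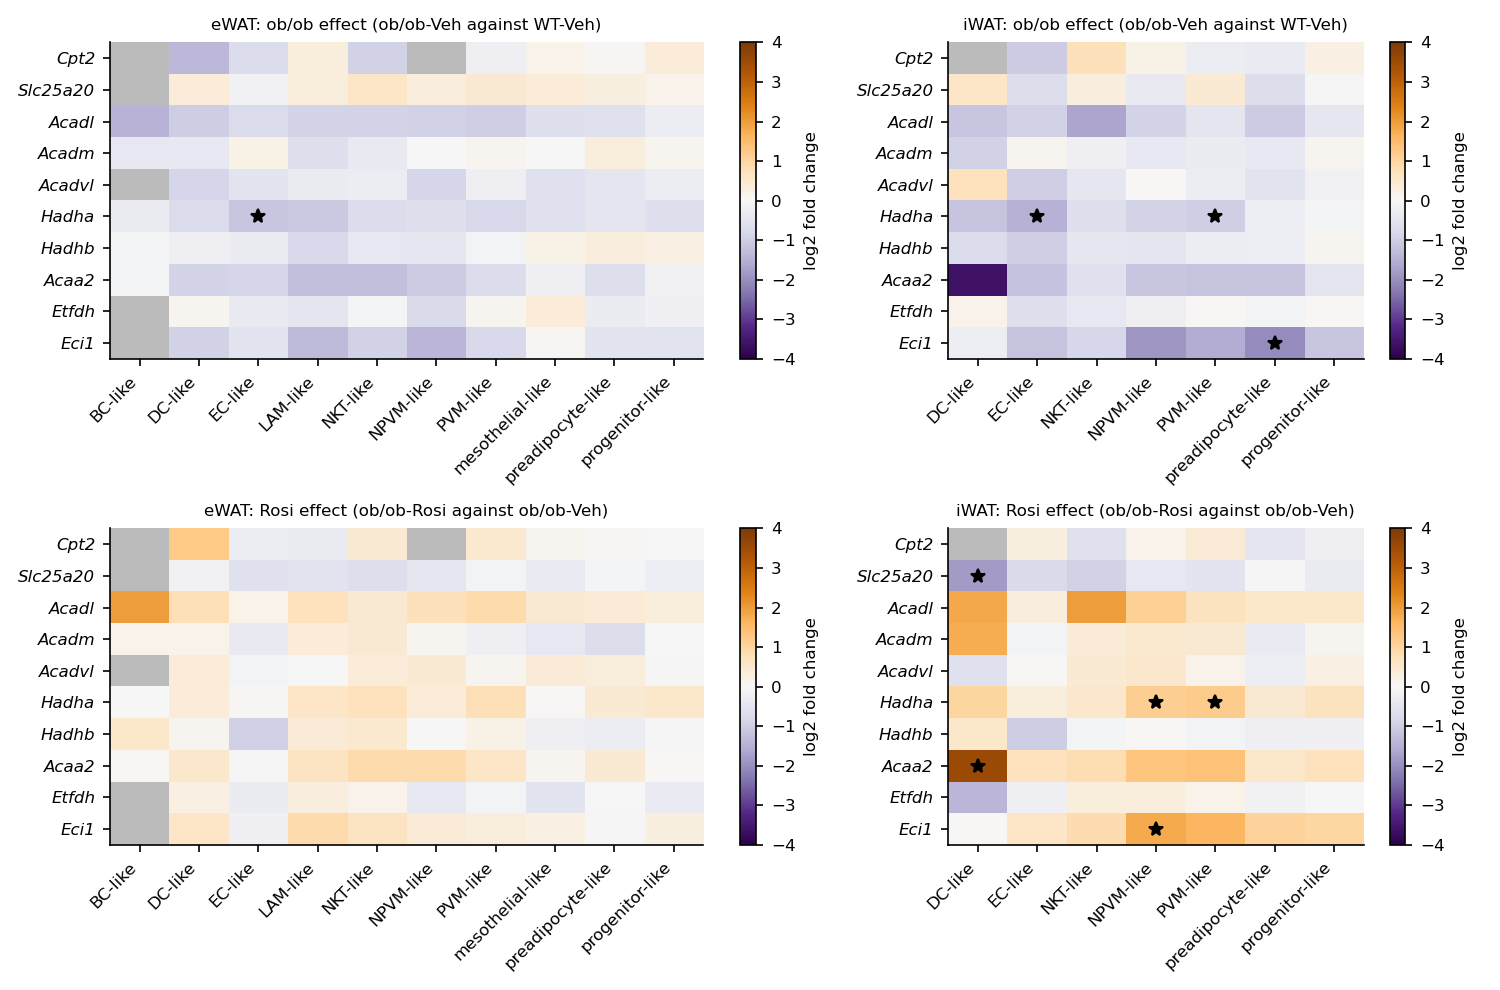
Log2 fold changes of the 10 genes by class. The upper panels show ob/ob-Veh against WT-Veh and the lower ones ob/ob-Rosi against ob/ob-Veh, in eWAT (left) and iWAT (right). Brown is higher, purple lower, grey did not pass the filter on low counts, and a star marks a called test. The upper panels hold 1 star (left) and 3 (right), the lower ones 0 and 5. The rows of Acadl, Hadha and Acaa2 are purple above and mostly brown below, and both comparisons share the ob/ob-Veh libraries.

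Set directly against WT-Veh, ob/ob-Rosi differed in few genes in the main fit, and in iWAT in a larger share of them without WT-Veh 2. In eWAT 0 of 94 member tests were called by edgeR and 2 by DESeq2, with 8 at an unadjusted p under 0.05, against 0.0492% of all gene and class tests called and 2.94% at that unadjusted p. Of those 8, 7 were in EC-like cells, where all 10 members were lower with a median of −0.72 (all genes in EC-like cells, −0.0027). EC-like cells also held 42 of the 47 calls among all genes, 0.401% of their genes, and 7.55% of their genes were at an unadjusted p under 0.05. Hadhb there had a log2 fold change of −1.27 ± 0.26 (SE) and an adjusted p of 0.0545. In iWAT 2 of 69 were called, against 0.158%, with 12 at an unadjusted p under 0.05 (4.46% of all tests), and both were in EC-like cells, as were 112 of the 121 calls among all genes (0.923% of the genes of the class). Hadhb, whose CPM in these cells is given above, fell by 1.98 ± 0.29 (SE) on the log2 scale (edgeR, adjusted p = 0.0156), and Slc25a20, at 52.8 and 59.1 CPM in WT-Veh, 48.4 and 35.6 in ob/ob-Veh and 18.9 and 22.0 in ob/ob-Rosi, fell by 1.45 ± 0.27 (adjusted p = 0.0390). For both genes ob/ob-Rosi lay below the other groups. The Hadhb call was lost without ob/ob-Rosi 2 (0.0607), ob/ob-Veh 1 (0.0826) or ob/ob-Veh 2 (0.0936). The Slc25a20 call remained only without WT-Veh 1, and was lost without WT-Veh 2 (0.0927), ob/ob-Rosi 1 (0.182), ob/ob-Rosi 2 (0.111), ob/ob-Veh 1 (0.115) or ob/ob-Veh 2 (0.118), or without doublets (0.0502). Hadha in the same cells had a log2 fold change of −1.16 ± 0.26 and an adjusted p of 0.0713. White adipocyte genes in iWAT EC-like cells summed to 1160 and 1058 CPM in WT-Veh, 1675 and 1806 in ob/ob-Veh and 526 and 351 in ob/ob-Rosi, and their part in the result was not tested.

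Differences between depots were tested in the 7 classes that both share. For the ob/ob effect 0 of 70 member tests were called by edgeR, with 2 at an unadjusted p under 0.05 (9% of all tests) and a median difference (iWAT minus eWAT) of −0.19 (all genes, −0.27 to −0.03 by class), against 0.514% of all tests. For the Rosi effect 0 of 70 were called by edgeR and 1 by DESeq2, with 6 at an unadjusted p under 0.05 (9.16% of all tests) and a median of 0.13 (all genes, 0.0008 to 0.21 by class), against 0.441%. The calls made in iWAT and not in eWAT were therefore not shown to be particular to iWAT. Differences of the Rosi effect between classes were tested against preadipocyte-like cells. In eWAT 2 of 90 were called, both Acadm (LAM-like and NKT-like cells), against 3.51% of all tests. In iWAT 3 of 60 were called, all in DC-like cells (Acaa2, Acadm and Slc25a20), against 2.03%. None of the 5 was called with each cell thinned to 700 UMIs (adjusted p 0.0569 to 0.512).

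Other genes of the pathway gave the setting. The counts of this list and those that follow stand beside the share of all gene and class tests called, which in eWAT was 3.91% (ob/ob effect) and 3.76% (drug), and in iWAT 2.96% and 6.13%. Of 15 further mitochondrial fatty acid oxidation genes, 5 of 114 eWAT gene and class tests fell in the ob/ob effect and 0 rose, and 2 rose and 0 fell in the Rosi effect (median log2 fold changes −0.28 and 0.21), which is 4.39% and 1.75% of the tests. Acads, the short-chain dehydrogenase, fell by 1.61 ± 0.35 (SE) on the log2 scale in eWAT preadipocyte-like cells (edgeR, adjusted p = 0.0175) and rose with the drug by 1.4 ± 0.35 (0.0308). These preadipocyte-like cells were led by another cluster in each group, holding 58.8% of WT-Veh, 97.1% of ob/ob-Veh and 55.8% of ob/ob-Rosi cells. In iWAT 2 of 89 fell and 0 rose in the ob/ob effect (2.25%, median −0.39), both in EC-like cells: Eci2 by 1.73 ± 0.34 (0.0286) and Etfb, a subunit of the electron-transfer flavoprotein, by 1.48 ± 0.30 (0.0306). With the drug 4 rose and 1 fell in iWAT (5.62%, median 0.28), the fall being the carnitine transporter Slc22a5 in NPVM-like cells by 2.41 ± 0.62 (0.0264). Eci2 fell in eWAT EC-like cells as well, by 1.29 ± 0.31 (0.0279).

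Peroxisomes shorten fatty acids by a parallel route. Of 15 genes listed for it 1 test rose and 6 of 113 fell in eWAT in the ob/ob effect, and 0 rose and 7 of 89 fell in iWAT (6.19% and 7.87% called, medians −0.12 and −0.30). The list was set by name, and whether each enzyme acts in peroxisomes, mitochondria or both was not examined. Ech1, a dienoyl-CoA isomerase of this list, fell by 1.87 ± 0.32 (SE) on the log2 scale in eWAT LAM-like cells (edgeR, adjusted p = 0.00533). In iWAT NPVM-like cells it fell by 2.11 ± 0.38 (0.0201) and rose with the drug by 2.11 ± 0.38 (0.00962). Most of the falls called in each depot were of Ech1, in classes that share libraries, so the shares above rest mainly on a single gene. With the drug 2 tests of this list rose and 2 fell in eWAT, and 3 rose and 1 fell in iWAT (3.54% and 4.49%, medians 0.02 and 0.11).

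Among 14 regulators, 3 tests rose and 8 of 94 fell in eWAT in the ob/ob effect, and 0 rose and 3 of 78 fell in iWAT (11.7% and 3.85% called, medians 0.06 and −0.19). All falls called in eWAT were of Angptl4 or Ucp2, and the rises were of Pdk4 or Nrip1. The classes share libraries, so the eWAT share rests on few genes and does not describe the list as a whole. Pdk4, a kinase that turns off pyruvate dehydrogenase, was lower in EC-like cells of ob/ob-Rosi than of WT-Veh by log2 fold changes of −3.62 ± 0.43 (SE) in eWAT (edgeR, adjusted p = 0.00735) and −4.11 ± 0.44 in iWAT (0.00672), and in eWAT PVM-like cells it rose by 3.16 ± 0.42 (0.0078) in ob/ob-Veh. Of those PVM-like cells 98.0% were in another cluster than the one leading in WT-Veh (73.7%) and ob/ob-Rosi (59.3%). Angptl4, a secreted inhibitor of lipoprotein lipase and a known PPAR target, fell in iWAT EC-like cells by 2.84 ± 0.42 (0.00795) in ob/ob-Veh and in eWAT NPVM-like cells by 2.60 ± 0.35 (0.000148), where it rose with the drug by 1.73 ± 0.34 (0.00238). Pparg itself fell in iWAT PVM-like cells by 1.63 ± 0.35 (0.0401) and rose with the drug by 1.66 ± 0.34 (0.0273). In the Rosi effect 4 regulator tests rose and 3 fell in eWAT, and 3 rose and 2 fell in iWAT (7.45% and 6.41%, medians −0.05 and −0.17).

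Of TCA cycle tests 0 rose and 5 of 105 fell in iWAT in the ob/ob effect, and 10 rose and 0 fell with the drug (medians −0.63 and 0.43), while in eWAT the numbers were 0 and 1 of 146, and 2 and 0 (−0.19 and 0.15). Of mitochondrial content tests (import, channel and chaperone genes) 0 rose and 3 of 83 fell in iWAT, and 9 rose and 0 fell with the drug (medians −0.58 and 0.71), while in eWAT they were 0 and 0 of 119, and 1 and 0 (−0.43 and 0.34). Sdhb, a subunit of succinate dehydrogenase, rose with the drug in iWAT NPVM-like cells by 2.55 ± 0.58 (SE) on the log2 scale (edgeR, adjusted p = 0.0168) and Tomm20, a receptor of protein import, by 1.91 ± 0.36 (0.0097).

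Transcripts from outside the pathway moved with the same groups. Dissociation response genes (12 genes) rose in 22 and fell in 2 of 120 eWAT tests of the ob/ob effect and rose in 1 and fell in 31 with the drug (medians 0.77 and −0.91), and in iWAT they rose in 5 and fell in 0 of 84 tests and rose in 1 and fell in 9 with the drug. White adipocyte genes (10 genes) rose in 13 and fell in 0 of 34 eWAT tests and rose in 0 and fell in 13 with the drug (medians 1.20 and −2.15), and in iWAT they rose in 5 and fell in 3 of 40 tests and rose in 0 and fell in 8 with the drug. Of 6 brown adipocyte tests in iWAT 1 fell in the ob/ob effect and 1 rose with the drug. Many combinations of adipocyte gene and class failed the filter on low counts, and others may have passed only through the group where they were high. The adipocyte counts are therefore a description. The part of all these transcripts in the results on the 10 genes was not tested.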

How the data were processed

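Single-cell RNA-seq of 12 stromal vascular libraries was analysed from count matrices deposited by the authors, who used bcl2fastq 2.19.1.403 and Cell Ranger 3.0.2 against mm10. The deposited values are UMI counts per gene and cell, not normalized. The iWAT files held no barcode over 22000 UMIs or with 25% or more mitochondrial UMIs, whereas the eWAT files did. All samples were handled as a single batch according to the study's methods, so no batch term was used.

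Cells with 700 to 22000 UMIs, 200 to 6000 genes and under 25% mitochondrial UMIs were kept. Each depot was clustered with scanpy 1.11.5 (2000 variable genes, 25 principal components, 20 neighbours, leidenalg 0.10.2 at resolution 1), and adipocyte progenitor cells again (15 components, resolution 0.6). Clusters were named from 17 marker lists by mean standardised expression, with a minimum score of 1, and details of this rule were set after the clusters were seen. Doublets were kept in the main analysis. The UMIs of each class were added up within a library and fitted across all genes with edgeR 4.0.16 (R 4.3.3), with TMM scaling, filterByExpr, glmQLFit and glmQLFTest, the 3 groups of a depot in a single fit. Standard errors were derived from the fold change and the F statistic. Depot differences used 12 libraries with depot by group terms, and class differences used the library as a block. The labels do not say whether eWAT and iWAT libraries came from the same mice. The depot fit therefore had no mouse term and took the 12 libraries as independent. P-values were adjusted by the Benjamini-Hochberg method over all genes of a class. Intervals on counts were exact and cover counting error only.

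The 10 genes and the gene lists were chosen with earlier results of these data known. Full values are given for called member tests, and up to 3 genes per direction from other lists. A result of the peroxisomal list is not reported here. Gene positions are from GENCODE M21 and promoters from RefSeq. Alternatives were DESeq2 1.42.0, 2 other scalings, no filter, no minimum change, thinning to 700 UMIs per cell, doublet removal, resolution 2, the replicate block and leaving out each library.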

Additional observations from a re-analysis of the deposited data

Results flagged for a closer look

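For 5 member tests the Rosi effect of a class differed from that of preadipocyte-like cells of the same depot by a test of the difference itself (edgeR quasi-likelihood test with class by group terms, Benjamini-Hochberg adjusted over all genes). With each cell thinned to 700 UMIs none of the 5 was called, and the adjusted p was 0.232 in LAM-like and 0.138 in NKT-like cells of eWAT for Acadm, and 0.509, 0.512 and 0.0569 for Acaa2, Acadm and Slc25a20 in iWAT DC-like cells. Acadm, the medium-chain dehydrogenase, accounted for 3 of the 5. In eWAT LAM-like cells its Rosi effect was higher by 0.99 ± 0.28 (SE) on the log2 scale (adjusted p = 0.0441), and in eWAT NKT-like cells by 1.11 ± 0.29 (0.0165). In preadipocyte-like cells Acadm measured 50.4 and 65.6 CPM in WT-Veh, 87.0 and 72.6 in ob/ob-Veh and 50.1 and 43.1 in ob/ob-Rosi, with ob/ob-Veh above both other groups. A different cluster led these cells in each group, with 58.8% of WT-Veh, 97.1% of ob/ob-Veh and 55.8% of ob/ob-Rosi cells. In LAM-like cells it measured 91.5 and 83.9, 40.8 and 79.9, and 79.0 and 67.0 CPM, and the difference was 0.69 (adjusted p = 0.520) without ob/ob-Veh 1 and 1.93 (0.0201) without ob/ob-Veh 2. The ob/ob-Veh values rest on 56 and 75 cells with 10 and 44 Acadm UMIs, and 7 NPVM markers in LAM-like cells summed to 281 and 211, 1400 and 1412, and 488 and 199 CPM. The adjusted p was also over the threshold without WT-Veh 2 (0.0538), ob/ob-Rosi 1 (0.0790) or ob/ob-Rosi 2 (0.131), by DESeq2 (0.0525) and when scaled by library size alone (0.0818). In NKT-like cells Acadm measured 47.3 and 41.2, 39.0 and 36.3, and 50.3 and 47.6 CPM, and the adjusted p was 0.543 without ob/ob-Rosi 2, 0.181 without ob/ob-Veh 1, 0.0704 without ob/ob-Veh 2 and 0.0647 without ob/ob-Rosi 1. In NKT-like cells 8 LAM markers summed to 3190 and 2587 CPM in WT-Veh, 407 and 414 in ob/ob-Veh and 4213 and 4185 in ob/ob-Rosi, 9 preadipocyte markers to 10753 and 6025, 1491 and 1549, and 10222 and 5469, and 12 dissociation response genes to 4580 and 3448, 10851 and 8472, and 4464 and 4521. The part of these transcripts in either result was not tested.

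In iWAT all 3 were in DC-like cells. The Rosi effect on Acaa2 was higher than in preadipocyte-like cells by 3.23 ± 0.92 (adjusted p = 0.0422) and that on Acadm by 2.28 ± 0.56 (0.0136), whereas that on Slc25a20 was lower, with a difference of −1.57 ± 0.30 (0.00135). Acadm measured 25.8 and 39.5 CPM in WT-Veh, 31.5 and 23.5 in ob/ob-Veh and 61.3 and 60.0 in ob/ob-Rosi, from 3 and 2 UMIs in ob/ob-Veh. Without ob/ob-Rosi 1, ob/ob-Rosi 2, ob/ob-Veh 1 or ob/ob-Veh 2 its adjusted p was 0.109, 0.188, 0.138 or 0.148, and that of Acaa2 was 0.125, 0.280, 0.157 or 0.524, and 0.0621 without WT-Veh 2. The size of the Acaa2 difference rested on 1 and 0 UMIs in ob/ob-Veh and was 10.46 without ob/ob-Veh 1 and 2.09 without ob/ob-Veh 2. Acaa2 passed the filter on low counts through the other groups, so its difference is a description and supports nothing. The Slc25a20 difference was lost without ob/ob-Rosi 2 (0.143) or ob/ob-Veh 1 (0.117). Scaled by library size alone the differences were 2.37 (0.214) for Acaa2, 1.43 (0.146) for Acadm and −2.43 (0.000138) for Slc25a20. The adjusted p of Acaa2 was also 0.161 by DESeq2, 0.0543 at resolution 2, 0.138 without the filter and 0.0728 with TMM factors computed without ribosomal protein and mitochondrially encoded genes. Median UMIs per DC-like cell were 2660 and 8078 in WT-Veh, 1817 and 1790 in ob/ob-Veh and 6629 and 5253 in ob/ob-Rosi, and their part in the result was not tested. All 6 DC-like sums of iWAT came from 1 cluster of 42 to 198 cells per library. The preadipocyte-like cells they were set against did not. Most of those labelled ob/ob-Veh (86.6%) were in another cluster than most of WT-Veh (70.3%) and ob/ob-Rosi (65.2%). The part of this in the differences was not tested.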

How the results depend on the processing

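Over the 10 counts of called members 101 of 159 alternative values lay within 1.5 times of the main count, 28 were lower and 30 higher. Of 228 alternative values of the 16 called members, 142 kept direction and call, 86 lost the call and 0 reversed. The 16 are tests of a member in a class, not separate genes. Dropping the minimum change could not end a call, and a refit in which the gene failed the filter gave no value. The causes of these changes were not tested. The share of all gene and class tests called changed with the same settings and stands in parentheses in this paragraph and the next. With DESeq2 the calls were 5 for the eWAT ob/ob effect (4.38%), 2 for the eWAT Rosi effect (4.38%), 2 for ob/ob-Rosi versus WT-Veh in eWAT (0.125%), 7 for the iWAT ob/ob effect (5.9%), 6 for the iWAT class differences (2.32%) and 1 for the depot difference of the Rosi effect (1.56%). Without a filter they were 6, 2 and 2 in eWAT (4.71%, 4.64% and 0.221%), 14 for the iWAT ob/ob effect (6.46%), 12 for the iWAT Rosi effect (8.66%) and 1 for the depot difference of the ob/ob effect (1.68%). With library size alone they were 1 for the eWAT (3.28%) and 2 for the iWAT Rosi effect (8.16%), and this scaling moved the median of all genes by −0.66 to 0.51 on the log2 scale. At resolution 2 they were 2 for the eWAT ob/ob (3%) and 1 for the eWAT Rosi effect (2.78%), and the eWAT class differences gave no value, since preadipocyte-like cells fell under 20 in a library. Thinned to 700 UMIs, both class differences gave 0 (1.36% in eWAT and 0.706% in iWAT). Without doublets the eWAT ob/ob effect gave 0 (3.04%) and iWAT ob/ob-Rosi against WT-Veh 1 (0.15%).

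The replicate numbers of the labels are not stated to pair the mice. Same-numbered libraries had correlated deviations of −0.09 to 0.60 by class. A fit blocked on that number (replicate block) gave calls that were 7 for the ob/ob effect, 3 for the Rosi effect and 3 for ob/ob-Rosi versus WT-Veh in eWAT (8.63%, 8.38% and 0.336% of all tests), and 13, 13 and 4 in iWAT (8.22%, 14.6% and 0.724%).

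Leaving out each library gave 0 to 10 calls for the eWAT ob/ob effect (10 without ob/ob-Rosi 1 and 8 without ob/ob-Rosi 2), 0 to 5 for the eWAT Rosi effect (5 without ob/ob-Rosi 1), 0 to 1 for ob/ob-Rosi versus WT-Veh and 0 to 2 for eWAT class differences. In iWAT it gave 0 to 18 for the ob/ob effect (18 without WT-Veh 1, the library that stood apart, and 0 without either ob/ob-Veh library), 0 to 14 for the Rosi effect (14 without WT-Veh 1, 12 without WT-Veh 2 and 0 without any 1 of the ob/ob-Veh and ob/ob-Rosi libraries), 0 to 4 for ob/ob-Rosi versus WT-Veh and 0 to 4 for class differences. Depot differences gave 0 to 1 for the ob/ob effect and 0 to 0 for the Rosi effect. The lone library of a group is then assumed to vary like the others. The share of all gene and class tests called also changed with the library left out. For iWAT ob/ob-Rosi versus WT-Veh that share was highest without WT-Veh 2, and for iWAT class differences without WT-Veh 1 or WT-Veh 2. The counts above are therefore no measure of the members alone. With few UMIs of Cpt2, Etfdh and Eci1 in small classes, a change that was not called may still exist. The other gene lists were part of these refits, but how their calls changed was not summarised. Those calls are therefore given from the main fit alone, without this limit.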
